A study of Mus musculus with 12 samples.

Results

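The expression of 10 genes that control the G1 phase of the cell cycle was examined in SETDB1-depleted mouse embryonic stem cells (ESCs). The genes were chosen by name among the 26061 genes of the table, with earlier results of these data known. They were the D-type cyclins Ccnd1, Ccnd2 and Ccnd3 and the E-type cyclins Ccne1 and Ccne2. The others were the inhibitors of cyclin-dependent kinases (CDKs) Cdkn1b, Cdkn2a and Cdkn2b, and Rbl1 and Rbl2, which encode the pocket proteins p107 and p130. Poly(A) RNA was sequenced from 12 libraries in 4 groups of 3. All cells were Tet2 KO ESCs, carried a stably integrated construct and were infected with a lentiviral shRNA against Setdb1. For infected cells the study's methods give selection with puromycin or hygromycin, without naming the drug for these lines. One pair of groups expressed WT TET2 and the other a catalytically inactive TET2, and each rescue line was grown without feeders either in 2i medium (naïve ESCs, with N2, B27, LIF, PD0325901 and CHIR99021) or in serum with LIF (primed ESCs). PD0325901 inhibits the kinase MEK and CHIR99021 inhibits the kinase GSK3. Control shRNA libraries were not used here, so no value below measures a response to SETDB1 depletion. The labels number the replicates but do not say that they were separate cultures, so p-values measure only the spread between these libraries. Each rescue construct is represented by 1 cell line, and a difference between the rescue lines therefore cannot be told apart from other differences between these lines.

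A cell in G1 decides whether to copy its DNA. D-type cyclins bind the kinases CDK4 and CDK6, E-type cyclins bind CDK2, and both kinds of kinase phosphorylate the retinoblastoma protein and its relatives p107 and p130, which otherwise hold E2F transcription factors in check. Inhibitors of the INK4 family (Cdkn2a, Cdkn2b) bind CDK4 and CDK6, while the CIP/KIP family (Cdkn1b, encoding p27) binds cyclin-CDK complexes. Mouse ESCs are known for a short G1 phase, little D-type cyclin activity and high cyclin E activity, and serum and 2i media differ in the signals (MEK, GSK3) that act on cyclin genes in many cell types.

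The promoters of 3 genes are shown because Rbl1 and Ccne1 moved in opposite directions between the media and because Rbl1 and Cdkn2a were the members searched that had an E2F motif. RefSeq promoters (GRCm38.p6, from 250 bases before to 50 bases after the start of transcription) were matched for 7 of the 10 genes, as 9 sequences. Ccnd1, Ccnd2 and Ccne2 were not matched and not searched. The motifs searched on both strands were the E2F motifs TTTCCCGC, TTTCGCGC, TTTGCCGC and TTTGGCGC and the TCF motif CTTTGAT, none of which contains another. The 3 promoters lie on the minus strand, at chr2:157204485-157204784 for Rbl1, chr7:38107441-38107740 for Ccne1 and chr4:89294570-89294869 for the upstream start of Cdkn2a. They read 5′ to 3′ along the gene, with an E2F motif in capitals.
Rbl1: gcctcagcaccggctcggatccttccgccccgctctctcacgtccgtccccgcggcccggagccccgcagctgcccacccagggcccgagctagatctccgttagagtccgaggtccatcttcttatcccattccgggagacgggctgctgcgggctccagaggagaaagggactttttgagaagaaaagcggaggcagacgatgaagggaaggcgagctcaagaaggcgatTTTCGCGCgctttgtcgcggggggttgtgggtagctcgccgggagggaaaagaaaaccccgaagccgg
Ccne1: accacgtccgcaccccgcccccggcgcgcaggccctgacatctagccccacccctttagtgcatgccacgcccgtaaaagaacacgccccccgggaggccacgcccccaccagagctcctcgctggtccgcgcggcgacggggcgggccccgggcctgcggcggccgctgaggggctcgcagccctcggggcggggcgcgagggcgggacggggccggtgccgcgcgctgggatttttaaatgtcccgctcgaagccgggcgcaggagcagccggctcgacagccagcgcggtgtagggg
Cdkn2a, upstream start: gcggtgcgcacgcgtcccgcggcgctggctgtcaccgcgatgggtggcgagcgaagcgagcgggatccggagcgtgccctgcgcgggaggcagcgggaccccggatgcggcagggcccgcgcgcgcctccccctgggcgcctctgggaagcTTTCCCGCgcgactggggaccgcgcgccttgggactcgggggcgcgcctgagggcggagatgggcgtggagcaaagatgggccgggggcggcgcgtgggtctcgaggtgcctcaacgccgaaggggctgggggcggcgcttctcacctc
In Rbl1 the motif began at position -18 from the start of transcription, and in Cdkn2a at -99. None of the E2F motifs was in the Ccne1 window, and CTTTGAT was in none of the 9 windows. The windows not shown, of Ccnd3, Rbl2, Cdkn1b, Cdkn2b and the downstream start of Cdkn2a, also held no E2F motif. Whether the motif goes with a direction between the media was not tested. Of all 32851 promoters of the same length, 2.26% held one of the E2F motifs and 3.73% the TCF motif. A match is a description of these letters and not a measured site.

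Each library held between 8066662 and 21335933 reads in genes, obtained by inverting the authors' variance-stabilising transformation. Values are given as deposited, on a log2 scale on which a gene with no read is at 3.81 in every library. Setdb1 was read in all libraries, with 114 to 585 reads. Its values averaged 7.82 in naïve and 8.27 in primed ESCs with WT TET2, and 7.69 and 8.11 with mutant TET2. The media overlapped in both lines, and the part of Setdb1 in the results below was not tested. The Tet2 transcript, which includes the construct, was higher with WT than with mutant TET2 by 2.16 ± 0.34 (SE) on the log2 scale in naïve ESCs (adjusted p = 0.0154) and by 1.84 ± 0.34 in primed ESCs (adjusted p = 0.0297), so the lines differed in Tet2 RNA as well as in its sequence. By western blot the study reported similar levels of the WT and mutant TET2 proteins, which RNA reads do not measure. The Tet2 transcript also differed between the media, naïve minus primed, by -1.55 with WT TET2 (adjusted p = 0.00207) and by -1.87 with mutant TET2 (adjusted p = 0.000515), and its part in the results below was not tested. Of 10 markers of pluripotent cells, 9 were in the table, and they summed to 4721 to 6244 RPM (gene reads scaled to the depth of the library) in every group, with none at 0. Single markers differed between the media by limma. Utf1 was lower in naïve ESCs by -2.18 with WT and -2.25 with mutant TET2 (adjusted p = 1.4e-06 and 1.1e-06). Zfp42 differed by -0.94 and -1.29 (adjusted p = 0.0105 and 0.00129), and Nanog by 0.57 and 0.40 (adjusted p = 0.0357 and 0.137). No other marker of this list passed in either line. Of 8 fibroblast markers, Col1a2, Col3a1, Postn and Dcn had no read in any library. Col1a1 had 1 to 10 reads per library, Twist2 0 or 1, Lum 4 to 52 and Thy1 8 to 100. The list summed to 5.58 to 7.75 RPM in naïve and 2.48 to 4.90 RPM in primed ESCs, which did not overlap, and Thy1 was higher in naïve ESCs by 0.85 with WT (adjusted p = 0.00474) and by 1.40 with mutant TET2 (adjusted p = 9.3e-05), while Lum was lower with mutant TET2 (-0.95, adjusted p = 0.0161). The 8 primitive endoderm markers summed to 25.8 to 65.2 RPM in naïve and 25.1 to 47.2 RPM in primed ESCs, which overlapped. Of these, Sox7 had 0 or 1 read in naïve and 5 to 41 in primed libraries, and Dab2 had 0 to 6 and 6 to 45. The summed neural markers also differed between the media: 4 of 5 were in the table and summed to 93.1 to 155 RPM in naïve ESCs and 196 to 279 RPM in primed ESCs, with Neurog2 at 0 in the WT TET2 line and near 0 in the mutant line, while Pax6 and Tubb3 fell in naïve ESCs in both lines. Nes had differences of the other sign, 0.30 with WT and 0.51 with mutant TET2 (adjusted p = 0.39 and 0.132). The part of these markers in the results below was not tested. In bulk RNA, fewer cells in a phase of the cycle and less RNA per cell cannot be told apart.

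The D-type cyclins were read at very different levels and changed unequally between the media. Levels between genes are given as RPKM, reads per kilobase of merged exons scaled to the gene reads of the library. Ccnd3 (mm9, chromosome 17, 47642000 to 47736632, plus strand) was the main D-type cyclin, at 53.5 on average over the 6 naïve libraries and 106 over the 6 primed libraries. Ccnd1 (chromosome 7, 152115836 to 152125774, minus strand) was at 20.8 and 21.2. Ccnd2 (chromosome 6, 127075797 to 127101066, minus strand) was at 0.0443 and 0.797, the lowest of the 10 genes in each of the 4 groups.

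**Figure D1:**
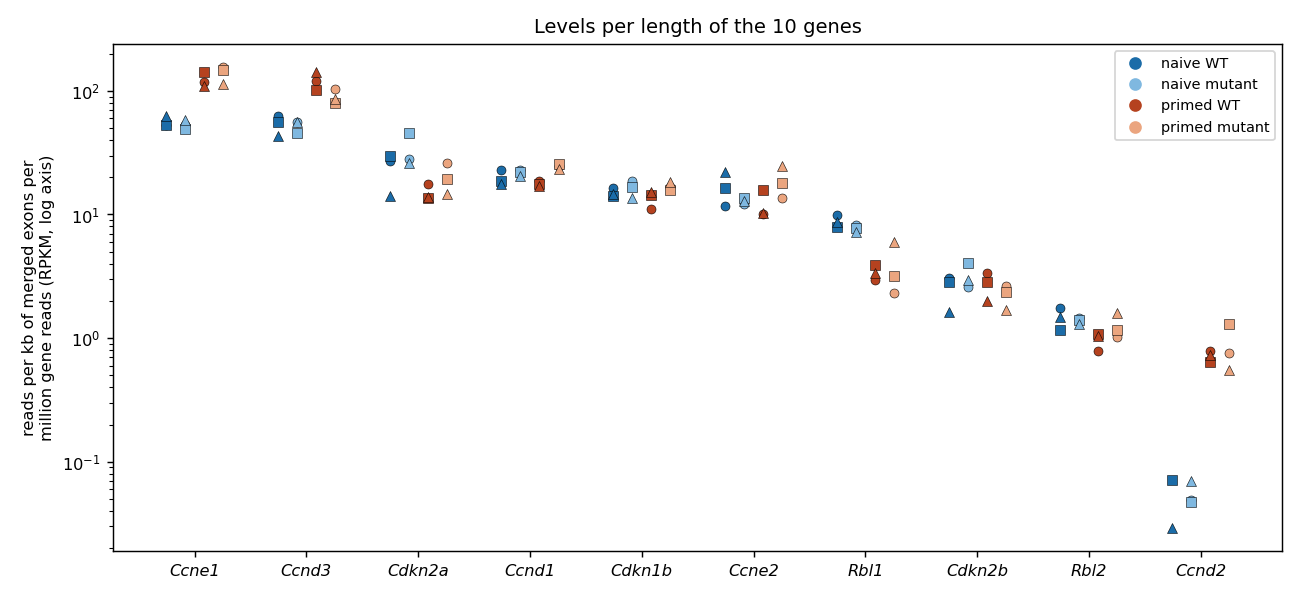
RPKM over merged exons (log axis) for the 10 genes in each library, ordered by their mean over all libraries, with a circle, square and triangle for replicates 1, 2 and 3 and a colour for each group. Ccne1 and Ccnd3 lie above 40 in every library, and Ccnd2 lies below 0.1 in naïve and above 0.5 in primed ESCs, where the 1 naïve WT library without a Ccnd2 read is not drawn.

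Ccnd2, which encodes cyclin D2, had between 0 and 8 reads per library in naïve ESCs. The 3 naïve libraries with WT TET2 held 0, 5 and 2 of its reads and those with mutant TET2 4, 3 and 8, while the primed libraries held 36, 36 and 89 with WT and 39, 82 and 35 with mutant TET2. The groups of the 2 media did not overlap in either line, a description for which the share over all genes within a line was not counted. After scaling by the size factors, the summed reads were 19.3 times higher in primed than in naïve ESCs with WT TET2 (95% interval 9.16 to 48.8, exact, counting error only, from 161 and 7 reads) and 15.4 times with mutant TET2 (9.05 to 28.2, from 156 and 15 reads). On the deposited scale, which compresses low values, the naïve minus primed difference of Ccnd2 was -1.92 ± 0.24 (SE) with WT TET2 and -1.82 ± 0.24 with mutant TET2. With limma-voom on the recovered reads the differences were -4.58 and -3.76. The gene lay less than 1 above the lowest value in naïve ESCs and passed the filter on low values through its primed libraries, so its limma test is not read as support and no p is given. The genes that overlap Ccnd2 and Rbl1 on the opposite strand share no exon base with them.

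Ccnd3, encoding cyclin D3, fell in naïve ESCs, from a much higher level. Its deposited values were 10.72, 10.60 and 10.28 in naïve ESCs with WT TET2 and 10.61, 10.33 and 10.55 with mutant TET2, against 11.67, 11.42 and 11.82 and 11.52, 11.08 and 11.18 in primed ESCs. All 6 naïve libraries lay below all 6 primed ones. Primed exceeded naïve reads 2.26 times with WT TET2 (log2 difference -1.10 ± 0.17, SE, adjusted p = 0.000122) and 1.67 times with mutant TET2 (-0.76 ± 0.17, adjusted p = 0.00266). Bysl lies on the opposite strand and shares 15.7% of the exon bases of Ccnd3. The libraries carry no strand, and Bysl itself differed by -0.83 with WT (adjusted p = 0.00121) and by -0.61 with mutant TET2 (adjusted p = 0.0105), so reads in the shared bases cannot be told apart.

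Ccnd1, encoding cyclin D1, did not pass the test between media in either line. Its deposited values were 10.05, 9.80 and 9.75 in naïve and 9.79, 9.69 and 9.58 in primed ESCs with WT TET2, and 10.09, 10.04 and 9.88 in naïve and 10.24, 10.23 and 10.07 in primed ESCs with mutant TET2. The media overlapped in both lines, with a difference of 0.18 ± 0.14 (SE, adjusted p = 0.338) with WT and -0.18 ± 0.14 (adjusted p = 0.358) with mutant TET2. Oraov1, on the opposite strand, shares 21.3% of the Ccnd1 exon bases and differed by 0.14 and -0.12 between the media (adjusted p = 0.537 and 0.58).

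The make-up of the D-type cyclins therefore differed between media within each library, a ratio that does not depend on how libraries are scaled. Ccnd1 held 28.1% ± 2.6 (SD, n = 6) of the summed D-type level in naïve and 17.2% ± 5.1 in primed ESCs. Ccnd3 held 71.9% ± 2.6 and 82.2% ± 5.3, and Ccnd2 0.0606% and 0.645%. The Ccnd1 and the Ccnd3 share differed between the media, each with an exact two-sided permutation p of 0.005, the smallest that 400 arrangements within the rescue lines can give. With Ccnd2 so small a part, the Ccnd1 and Ccnd3 shares are near complements, and their p-values are not separate results. Within each line the media did not overlap in either share, and this separation alone gives that p. The level of Ccnd1 did not pass the test while that of Ccnd3 fell in naïve ESCs. The summed D-type level was 73.8 ± 12.1 (SD, n = 3) in naïve ESCs with WT and 74.7 ± 6.0 with mutant TET2, and 139.6 ± 19.2 and 115.5 ± 12.4 in primed ESCs. Within primed ESCs the Ccnd1 share was 13.4%, 14.7% and 10.7% with WT TET2 and 19.2%, 24.1% and 21.1% with mutant TET2, and these groups did not overlap. The share was not tested between the rescue lines. By limma neither Ccnd1 nor Ccnd3 passed between the primed lines (adjusted p = 0.172 and 0.292), where 22.4% of all genes tested did not overlap.

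**Figure D2:**
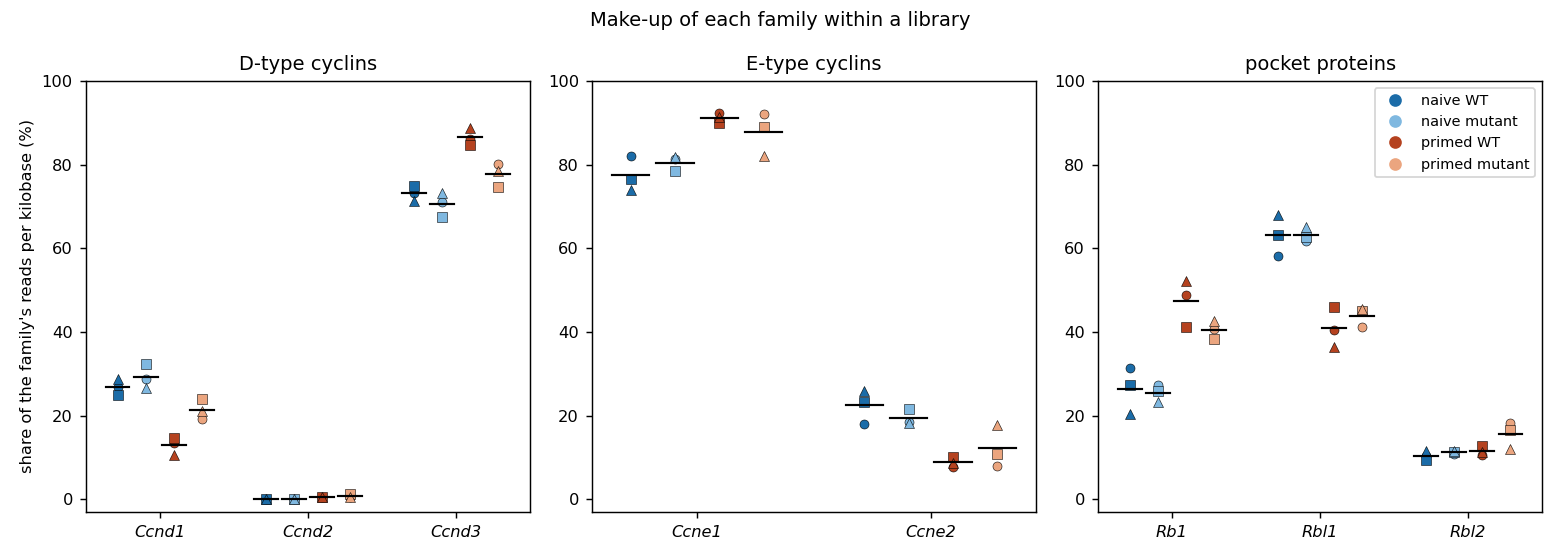
Share (%) of each gene in the summed reads per kilobase of its family in each library, with symbols for replicates 1 to 3, colours for groups and a bar at the group mean. The Ccnd1 share lies at 25.0% or more in naïve and at 24.1% or less in primed libraries, and the Ccne2 share at 18.0% or more in naïve and at 17.8% or less in primed libraries.

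Ccne1 (chromosome 7, 38883003 to 38892553, minus strand), which encodes cyclin E1, was together with Ccnd3 the most abundant of the 10 genes per length and was lower in naïve ESCs in both lines. In naïve ESCs its deposited values were 10.72, 10.77 and 11.03 with WT and 10.76, 10.66 and 10.83 with mutant TET2. The primed values were 11.89, 12.13 and 11.69 with WT and 12.33, 12.20 and 11.82 with mutant TET2. The lowest primed library lay above the highest naïve library. The naïve minus primed difference was -1.06 ± 0.17 (SE) with WT TET2 (adjusted p = 0.000135), which was 2.02 times more reads in primed ESCs, and -1.37 ± 0.17 with mutant TET2 (adjusted p = 1.3e-05), which was 2.57 times more. No annotated gene overlaps Ccne1.

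Ccne2 (chromosome 4, 11118498 to 11131926, plus strand), encoding cyclin E2, had differences of opposite sign in the 2 lines and passed the test in neither. With WT TET2 its values were 8.98, 9.48 and 9.93 in naïve and 8.79, 9.40 and 8.77 in primed ESCs, a difference of 0.48 ± 0.24 (SE, adjusted p = 0.134). With mutant TET2 they were 9.08, 9.24 and 9.11 in naïve and 9.26, 9.60 and 10.04 in primed ESCs, a difference of -0.49 ± 0.24 (adjusted p = 0.124), and here the media did not overlap. The share of all genes so separated within a line was not counted, so this is a description only. Without naïve WT replicate 1 the difference with WT TET2 was 0.72 and passed the test (adjusted p = 0.0319), while without naïve WT replicate 3 it was 0.24 (adjusted p = 0.468). Without primed mutant replicate 3 the difference with mutant TET2 was -0.29 (adjusted p = 0.379). Ints8, on the opposite strand, shares 17.4% of the Ccne2 exon bases, with a difference of 0.39 with WT TET2 (adjusted p = 0.075) and -0.03 with mutant TET2 (adjusted p = 0.909).

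Within a library Ccne1 made up most of the E-type cyclin level, at 79.0% ± 3.2 (SD, n = 6) in naïve and 89.5% ± 3.8 in primed ESCs (exact permutation p = 0.005, the smallest possible). Within each line the media did not overlap in this share, and this separation alone gives that p. The share of Ccne2 was thus 21.0% in naïve and 10.5% in primed ESCs. The summed E-type level was 72.9 ± 10.3 (SD, n = 3) in naïve ESCs with WT and 66.4 ± 4.3 with mutant TET2, against 135.1 ± 19.6 and 158.3 ± 16.7 in primed ESCs. The ranges of Ccne1 and Ccnd3 levels overlapped in naïve ESCs with WT TET2, at 52.9 to 62.4 and 43.5 to 62.4. Over merged exons they were separate in primed ESCs with mutant TET2 and in none of the other groups, with Ccne1 at 114.3 to 155.9 and Ccnd3 at 79.9 to 104.2. Over the longest transcript they were also separate in naïve ESCs, with Ccne1 at 70.4 to 83.1 and Ccnd3 at 46.4 to 66.6 with WT TET2 and at 65.6 to 77.5 and 49.0 to 60.2 with mutant TET2. The Ccne1 level depends on the length used, at 56.3 over merged exons and 74.9 over the longest transcript in naïve ESCs with WT TET2.

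The CDK inhibitors among the 10 genes did not pass the test between media in either line. Cdkn1b (chromosome 6, 134870419 to 134875531, plus strand), encoding p27, ranged from 9.54 to 10.06 in naïve and from 9.30 to 9.98 in primed ESCs. Its naïve minus primed difference was 0.20 ± 0.16 (SE, adjusted p = 0.343) with WT TET2, where the media did not overlap, and -0.07 ± 0.16 (adjusted p = 0.768) with mutant TET2, where they did. The lack of overlap is a description only, since the share of all genes so separated within a line was not counted. Averaged over the lines the difference was 0.07 (exact permutation p = 0.535).

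Cdkn2a (chromosome 4, 88920377 to 88940557, minus strand) encodes p16Ink4a, an inhibitor of CDK4 and CDK6, and p19Arf, a regulator of p53, from separate first exons, and reads counted per gene do not separate them. Its values were 8.64, 8.81 and 7.86 in naïve and 8.09, 7.74 and 7.72 in primed ESCs with WT TET2, and 8.72, 9.41 and 8.57 in naïve and 8.67, 8.21 and 7.85 in primed ESCs with mutant TET2. The media overlapped in both lines, by 1 naïve library with WT TET2 and 1 primed library with mutant TET2. The difference was 0.59 ± 0.27 (SE, adjusted p = 0.101) with WT and 0.66 ± 0.27 (adjusted p = 0.0681) with mutant TET2. Over both lines it was 0.62, with an exact two-sided permutation p of 0.025 that is not adjusted over genes. It passed the test with WT TET2 without naïve replicate 3 (0.88, adjusted p = 0.0179) and with mutant TET2 without primed replicate 1 (0.87, adjusted p = 0.0301) or without naïve replicate 3 (0.83, adjusted p = 0.0417). It was smaller with WT TET2 without naïve replicate 2 (0.40, adjusted p = 0.32), and with mutant TET2 without naïve replicate 2 (0.41, adjusted p = 0.308) or without primed replicate 3 (0.46, adjusted p = 0.219).

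Cdkn2b (chromosome 4, 88952198 to 88956941, minus strand), the neighbour of Cdkn2a that encodes p15Ink4b, was read 26 to 83 times per library. Its values ranged from 5.70 to 6.56 in naïve and from 5.69 to 6.35 in primed ESCs, and the media overlapped widely. The difference was -0.06 ± 0.22 (SE, adjusted p = 0.844) with WT and 0.34 ± 0.22 (adjusted p = 0.234) with mutant TET2.

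Rbl1 (chromosome 2, 156971629 to 157030270, minus strand), encoding p107, was the one member that passed the test as higher in naïve ESCs in both lines. The naïve values were 9.51, 9.23 and 9.38 with WT and 9.29, 9.22 and 9.06 with mutant TET2. The primed values were 7.90, 8.25 and 7.99 with WT and 7.64, 7.97 and 8.82 with mutant TET2. The lowest naïve library lay above the highest primed one, primed mutant replicate 3. The rise was 1.33 ± 0.23 (SE, adjusted p = 0.000373) with WT TET2, which was 2.69 times more reads, and 1.04 ± 0.23 (adjusted p = 0.00265) with mutant TET2, which was 1.94 times more. Without primed mutant replicate 3 the latter was 1.38 (adjusted p = 3.3e-05), and without primed mutant replicate 1 it was 0.79 (adjusted p = 0.0144).

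Rbl2 (chromosome 8, 93593956 to 93647743, plus strand), encoding p130, was read 44 to 183 times per library. With WT TET2 its values were 7.42, 6.96 and 7.26 in naïve and 6.50, 6.85 and 6.76 in primed ESCs. The rise of 0.51 ± 0.19 (SE) passed the test narrowly (adjusted p = 0.0449), and the adjusted p ran from 0.0322 to 0.185 over the alternatives, with most of them above the threshold. With mutant TET2 the values were 7.21, 7.19 and 7.04 in naïve and 6.84, 6.93 and 7.30 in primed ESCs, which overlapped (0.13 ± 0.19, adjusted p = 0.645). Aktip, on the opposite strand, shares 9.95% of the Rbl2 exon bases and differed by 0.14 with WT TET2 (adjusted p = 0.52).

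Among the pocket proteins, the p107 gene held 63.2% ± 3.3 (SD, n = 6) of the summed level per length in naïve and 42.5% ± 3.7 in primed ESCs. Rb1, which encodes the retinoblastoma protein itself and was added to make this sum, held 26.0% ± 3.8 and 43.9% ± 5.3, and Rbl2 10.9% and 13.6%. The Rb1 values ranged from 7.70 to 8.67 in naïve and from 7.63 to 8.74 in primed ESCs, and the media overlapped. Lpar6 and Rcbtb2, on the opposite strand, share 6.78% and 8.11% of the Rb1 exon bases.

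The order of the levels per length was alike at its ends in the 4 groups. In naïve ESCs with WT TET2, Ccne1 (56.3 RPKM) and Ccnd3 (54.1) came first, and Cdkn2a (23.7), Ccnd1 (19.7), Ccne2 (16.6) and Cdkn1b (15.0) followed, each overlapping its neighbour. Rbl1 (8.84) lay apart from the genes above and below it, while Cdkn2b (2.51) and Rbl2 (1.47) overlapped, and Ccnd2 (0.0334) came last. In primed ESCs with WT TET2, Ccnd1 (17.8), Cdkn2a (15.0), Cdkn1b (13.5) and Ccne2 (12.03) formed the middle of the order, again with overlapping neighbours. There Rbl1 (3.41) overlapped Cdkn2b (2.74). Rbl2 (0.971) and Ccnd2 (0.72) came last, and their ranges were separate with WT TET2 but overlapped with mutant TET2.

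**Figure D3:**
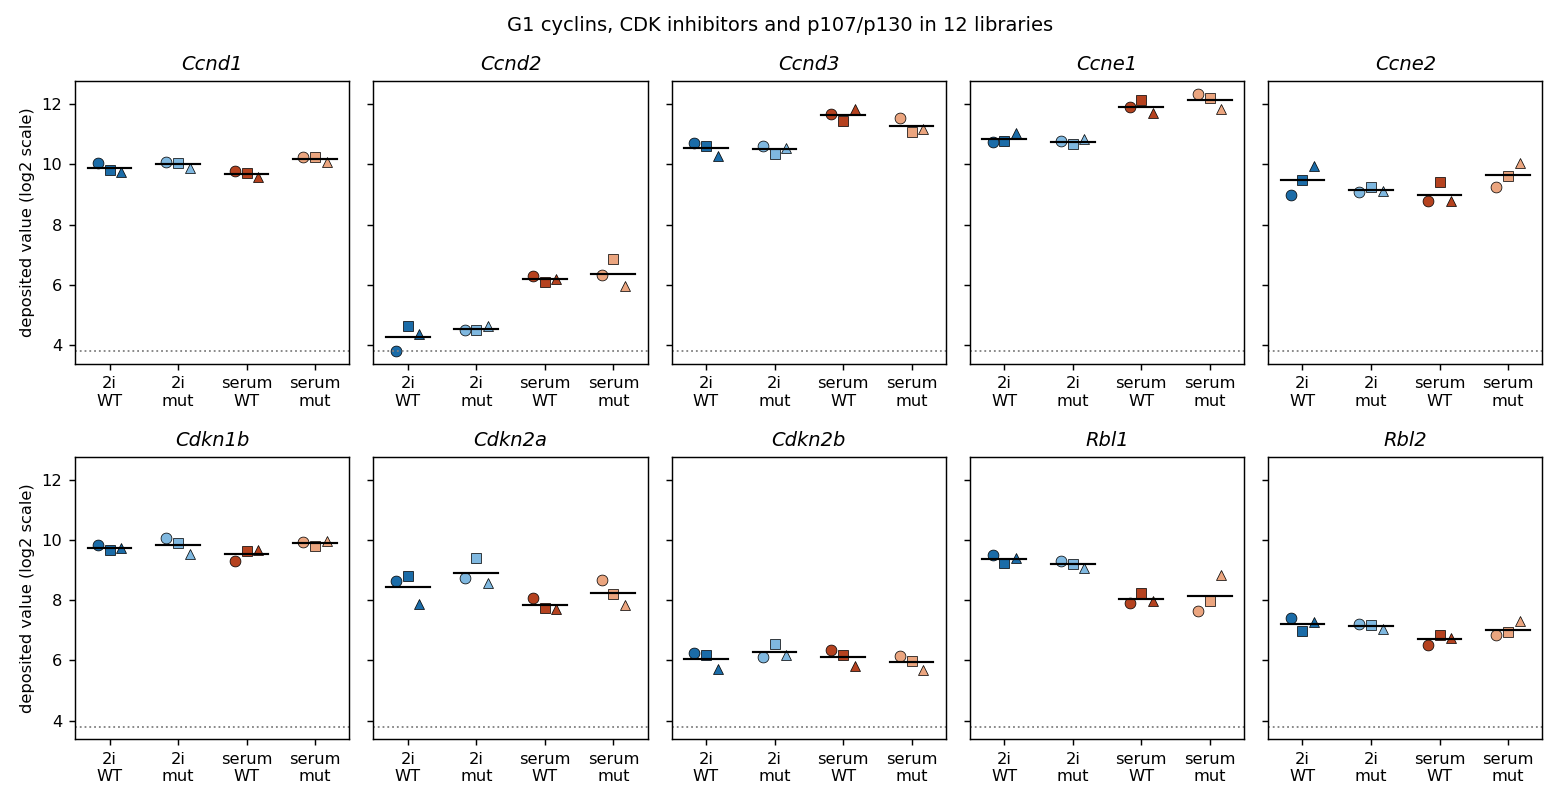
Deposited values (log2 scale) of the 10 genes in 12 libraries, one panel per gene, with a circle, square and triangle for replicates 1, 2 and 3, a black bar at the group mean and a dotted line at the value of a gene with no read. Ccnd2, Ccnd3 and Ccne1 lie lower in all 2i than in all serum libraries, Rbl1 lies higher, and the other 6 genes overlap between the media.

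Apart from Ccnd2, which passed the filter through its primed libraries, 4 of 9 genes passed the test between media with WT TET2, 2 higher (Rbl1, Rbl2) and 2 lower in naïve ESCs (Ccnd3, Ccne1). With mutant TET2, 3 passed, 1 higher (Rbl1) and 2 lower (Ccnd3, Ccne1). Over all 14185 genes tested, 18.6% were higher and 17.3% lower in naïve ESCs with WT TET2, and 18.3% and 16.9% with mutant TET2. The 2 comparisons share no library. All 6 naïve libraries were separate from all 6 primed ones for 3 of these 9 genes (Ccnd3, Ccne1, Rbl1), against 23.6% of all genes tested. Any gene so separated has an exact permutation p of 0.005 over both lines, so that p adds nothing to the separation. For Ccnd1 and Ccne2 the difference over both lines was 0.0025 and -0.008 (exact permutation p = 0.985 for each). The median difference of the 9 genes was 0.20 with WT and -0.07 with mutant TET2 (0.19 and -0.12 with Ccnd2 included), against 0.01 and -0.01 over all genes tested.

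**Figure D4:**
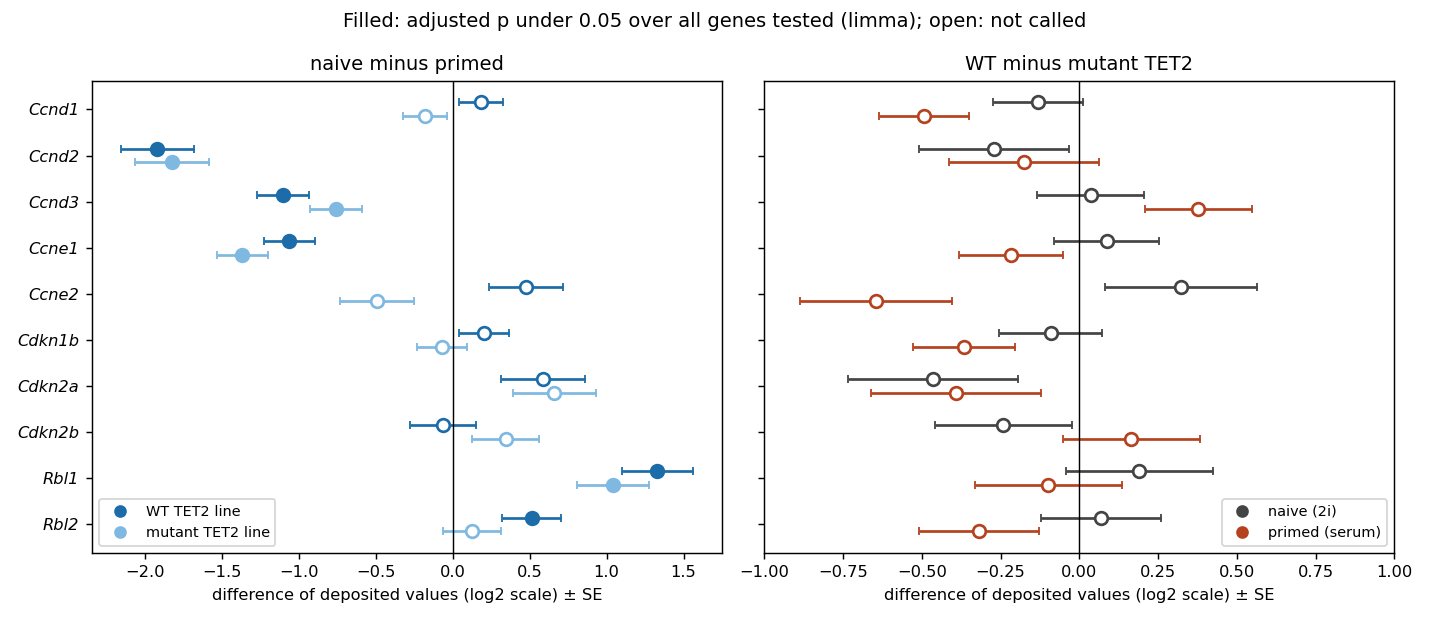
Differences of deposited values (log2 scale) with SE bars for the 10 genes, naïve minus primed in each rescue line (left) and WT minus mutant TET2 in each medium (right), with filled symbols for an adjusted p under 0.05. On the left Ccnd2, Ccnd3 and Ccne1 are filled below 0 and Rbl1 above 0 in both lines, where Ccnd2 passed the filter on low values through its primed libraries, and on the right no symbol is filled.

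The comparison of the rescue lines asks whether the catalytic activity of TET2 goes with a difference in these genes after SETDB1 depletion. In naïve ESCs 0 of the 10 genes passed the limma test, and 0 had an unadjusted p under 0.05. Over all genes 14, or 0.0987%, passed, and 1882 of 14185 had an unadjusted p under 0.05. Under a replicate block 36 passed, and 2797 had an unadjusted p under 0.05. With that block, which takes the same-numbered naïve libraries as paired, 0 of the 10 genes passed and 1, Cdkn2a, had an unadjusted p under 0.05 (-0.46 ± 0.17, SE, limma, unadjusted p = 0.0155, adjusted p = 0.162). WT lay below mutant TET2 in 3 of 3 naïve pairs for Cdkn2a and Ccnd1 and above it in 3 of 3 for Rbl1. The pairs of the other members were of mixed sign. The same count over all genes was not made, so these pairs are a description only. Member differences ran from -0.46 ± 0.27 (SE) for Cdkn2a to 0.32 ± 0.24 for Ccne2, and without regard to the pairs the groups of 3 overlapped for all 10 genes, where 16.8% of all genes tested did not overlap. With limma-voom on the recovered reads, 0 of the 10 genes passed as well.

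In primed ESCs 0 of the 10 genes passed, and 4 had an unadjusted p under 0.05, against 2295 of all 14185 genes tested. Over all genes 36, or 0.254%, passed, 29 higher and 7 lower with WT TET2, a split that became 27 and 13 with each library centred on its median and 29 and 14 with quantile normalization. Ccnd1 differed by -0.49 ± 0.14 (WT minus mutant, SE, adjusted p = 0.172) and Cdkn1b by -0.37 ± 0.16 (adjusted p = 0.282), and for both the 3 WT libraries lay below the 3 mutant libraries. The exact permutation p of 0.1 for each is the smallest that 3 against 3 can give. Members without overlap were thus 2 of 10, against 22.4% of all genes tested. Ccne2 differed by -0.65 ± 0.24 (adjusted p = 0.233) and Ccnd3 by 0.38 ± 0.17 (adjusted p = 0.292), and their groups overlapped. Oraov1, which overlaps Ccnd1, differed by -0.34 (adjusted p = 0.31).

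The difference between rescue lines was also compared between the media, as an interaction. By limma 0 of all genes tested (0%) passed, with 489 at an unadjusted p under 0.05, and limma-voom on the recovered reads also gave 0. Among the members the interaction ran from -0.41 ± 0.31 (SE) for Cdkn2b to 0.97 ± 0.34 for Ccne2, whose adjusted p was 0.976.

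Of the 4 CDK inhibitors outside the set, 2 were higher and 1 lower in naïve ESCs in each line. For this list and the lists that follow, the background is the share of all genes tested. With WT TET2, 18.6% were higher and 17.3% lower (median 0.01), and with mutant TET2 18.3% and 16.9% (median -0.01). No list was tested against this background. Cdkn1a, which encodes p21 and is a known target of p53, rose by 1.36 ± 0.19 (SE, adjusted p = 3.8e-05) with WT TET2 and by 1.90 (adjusted p = 1.5e-06) with mutant TET2. Its reads ran from 1015 to 2455 in naïve and from 292 to 959 in primed libraries. Cdkn2c, an INK4 gene encoding p18, rose by 0.72 (adjusted p = 0.0298) and 1.09 (adjusted p = 0.00269). Cdkn1c, encoding p57, fell, with differences of -0.81 (adjusted p = 0.0285) and -0.83 (adjusted p = 0.0248). The median of the 4 was 0.56 with WT and 0.74 with mutant TET2.

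Of 7 CDKs that G1 cyclins bind and their activators, 3 were higher and 0 lower with WT TET2 and 1 higher with mutant TET2 (medians 0.32 and 0.10). Cdk6, a partner of D-type cyclins, was the 1 called in both lines, higher by 1.06 (adjusted p = 9.1e-05) and 0.65 (adjusted p = 0.0048). Of 16 genes for the retinoblastoma protein, E2F factors, their partners and the DREAM complex, which represses cell cycle genes in resting cells, 3 were higher and 3 lower with WT TET2 and 3 higher and 6 lower with mutant TET2 (medians -0.05 and -0.32). The repressors E2f7 and E2f8 fell in naïve ESCs, with differences of -1.26 and -1.08 with WT and -1.05 and -0.94 with mutant TET2 (adjusted p from 0.000121 to 0.00132). E2f5, which acts with pocket proteins, was higher by 0.77 (adjusted p = 0.00664) and 0.69 (adjusted p = 0.0125).

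Of 8 parts of the ubiquitin ligases that act on G1 cyclins or p27, 0 were higher and 3 lower in naïve ESCs with WT TET2, and 0 and 5 with mutant TET2 (medians -0.41 and -0.49). Cks1b, a cofactor in the degradation of p27, differed by -0.45 (adjusted p = 0.0477) and -0.52 (adjusted p = 0.0257). Fbxw7, which recognises cyclin E, differed by -0.43 (adjusted p = 0.0288) and -0.46 (adjusted p = 0.0207). Of 15 genes of DNA replication that E2F factors are known to drive, 4 were higher and 2 lower with WT TET2 and 1 higher and 2 lower with mutant TET2 (medians 0.04 and 0.07), so that genes called in opposite directions stood side by side. Cdc45, a part of the replicative helicase, was higher by 0.64 and 0.52 (adjusted p = 0.00516 and 0.0191). Mcm5, another part of that helicase, differed by -0.42 and -0.63 (adjusted p = 0.0307 and 0.003), and Cdc6, which loads it, by -0.44 and -0.45 (adjusted p = 0.0395 and 0.0369). Of 6 cyclins and kinases of later phases 5 were tested, and 1, Ccnf, fell in both lines, with differences of -0.60 and -0.47 (adjusted p = 0.00767 and 0.031). In these 6 lists, 0 genes passed the limma test between the rescue lines in either medium. Over all genes tested, only 0.0987% passed in naïve and 0.254% in primed ESCs.

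The genes whose 4 group means followed Ccnd2 and Ccne1 most closely, the members with the widest range of group means, were found by the root mean square distance between centred means over the 4 groups. For Ccnd2 they were Cd276 (0.0415 on the log2 scale), Mtap7d3 (0.0491) and Ccdc109b (0.0662). For Ccne1 they were Kitl (0.0337), Kin (0.0344) and Cxcr7 (0.0471).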

How the data were processed

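RNA-seq libraries of the rescue lines were made without strand information. Per the labels and the study's methods, the authors trimmed reads with Trim Galore 0.3.3, aligned them to mm9 with TopHat2 2.0.9, placing a read with several equally good positions at one of them at random, and normalised gene counts with DESeq2. The counting tool and annotation are not given in the sources used here. What they deposited are variance-stabilised values in log2 units that contain the authors' size factors. A table of repeat classes was not used. No column of authors' comparisons was present, and all columns were mapped to a library by their names.

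The transformation was inverted to reads, and 100% of the values came out whole within 0.01 read in every library. Positions, exon lengths and overlaps of genes were taken from GENCODE annotation of mm9, and promoters from RefSeq (GRCm38.p6). Testing was limited to genes with a mean 1 or more above the lowest value (14185 of 26061, all 10 members among them). One limma 3.58.1 fit in R 4.3.3 held 4 group means over 12 libraries with a mean-dependent prior variance. Genes were called at a Benjamini-Hochberg adjusted p under 0.05 over all genes tested. The procedure was tested on simulated data. Single genes and shares were compared by exact two-sided permutation of the media within each rescue line. Intervals cover counting error only, since reads are not independent molecules. Tables and figures were made with Python 3.11.15, numpy 2.4.6, pandas 2.3.3, scipy 1.17.1 and matplotlib 3.10.9.

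The members and lists were chosen with earlier results of these data known. Named genes were the 10 members, up to 3 genes per pathway list called with the same sign in both lines and with the largest mean difference, the 3 nearest patterns of 2 members, and Setdb1 and Tet2. Overlapping genes, Rb1 shares and markers were added to describe the members. 1 marker of the neural list is not reported here.

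The alternatives changed the filter, the variance trend or the scaling (centring, quantile normalization), added a replicate block, or used limma-voom on recovered reads, fits of 2 groups, a limit on the difference, other transcript lengths and each library left out in turn. Whether replicate numbers pair the libraries was checked by the correlation of deviations from group means over genes. Same-numbered naïve libraries of the rescue lines correlated at 0.59, 0.30 and 0.39 and count as paired, by the data and not by the labels. Those of primed ESCs (0.16, -0.07 and 0.19) and those of the 2 media (0.22, 0.14 and -0.02 with WT, -0.05, -0.15 and -0.08 with mutant TET2) do not.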

Additional observations from a re-analysis of the deposited data

Results flagged for a closer look

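Ccne2 was singled out because its difference between the media had opposite signs in the 2 rescue lines, also when libraries were matched by replicate number. The numbers do not pair libraries across media, and with WT TET2 the media overlapped. The difference of the differences was 0.97 on the log2 scale (limma interaction, adjusted p = 0.976, unadjusted p = 0.0116), so it did not pass the test over all genes.

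Ccnd1 was singled out for the same arrangement of signs, with a difference of 0.36 (limma interaction, adjusted p = 0.976, unadjusted p = 0.0944). Its media overlapped in both lines.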

How the results depend on the processing

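Ccne1 and Rbl1 passed the test between media in both rescue lines under every alternative, as did Ccnd3 except with mutant TET2 when a difference over 1 was also required. A stricter filter tested neither Ccnd2 nor Cdkn2b. Members called between media numbered 4 or 5 with WT and 3 to 5 with mutant TET2, and 0 between rescue lines throughout. Except under the stricter filter these counts include Ccnd2, whose call is not read as support. Under the stricter filter 4 of 8 members were called with WT TET2, against 3534 of all 10104 genes tested. With mutant TET2 they were 3 of 8, against 3480 of 10104. Rbl2 with WT TET2 lost its call without a filter (adjusted p = 0.0623), with centring (0.0573), with limma-voom (0.0544), in a fit of 2 groups (0.0582), under a required difference over 1, and without any one of the 6 WT libraries except naïve replicate 2. With a replicate block, where the numbers pair libraries only between the naïve rescue lines, Rbl2 also lost its call (adjusted p = 0.082) and Cdkn2a with mutant TET2 gained one (0.0398), and no other member call between media changed. Why calls changed was not tested.

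Requiring a difference over 1 left 1745 genes called between media with WT TET2 and 1636 with mutant TET2. Genes called between naïve rescue lines (14) became 9 without a filter, 5 with the stricter filter, 9 in a fit of 2 groups and 36 with the replicate block, and 5 to 14 with 1 library left out. In primed ESCs (36) they became 23 with the stricter filter, 18 in a fit of 2 groups and 209 with the replicate block, and ran from 12 without WT replicate 1 to 82 without mutant replicate 3. The interaction gave 0 or 1 gene with 1 library left out.

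Differences near 0 changed sign. Quantile normalization gave -0.029 for Ccnd3 between naïve rescue lines and 0.064 for the interaction of Ccnd2. With 1 library left out, values ran from -0.22 to 0.11 for Cdkn2b (naïve minus primed, WT) and from -0.19 to 0.072 for Cdkn1b (naïve minus primed, mutant). Between naïve rescue lines they ran from -0.056 to 0.16 for Ccnd3, -0.0084 to 0.14 for Ccne1, -0.23 to 0.024 for Cdkn1b and -0.034 to 0.20 for Rbl2. Between primed lines they ran from -0.38 to 0.060 for Ccnd2 and -0.35 to 0.24 for Rbl1. For the interaction they ran from -0.33 to 0.14 for Ccnd2, -0.29 to 0.22 for Cdkn2a and -0.050 to 0.54 for Rbl1. The length of the longest transcript moved 13 levels by more than their SD and changed ranks in primed ESCs only. Depth limits Ccnd2 in naïve ESCs, with 0 to 8 reads per library.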
